A study of Mus musculus with 18 samples.

Results

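Genes that mark rare chemosensory and ion-transporting cells of the airway lining were followed through 6 sorted mouse cell populations. The list held 9 of the 27179 genes in the count files and was given as symbols, which were matched to the Entrez identifiers of the files. Of the list, 7 genes mark tuft cells (*Pou2f3*, *Trpm5*, *Dclk1*, *Gnat3*, *Il25*, *Gfi1b* and *Alox5ap*) and 2 mark ionocytes (*Foxi1* and *Ascl3*). The question put to the data was which sorting gates hold RNA of these cells.

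The study sorted cells from the normal, untreated trachea and lung of adult male C57BL/6 mice and sequenced RNA of 3 libraries per population. From the trachea of mice 1 to 3 came basal stem cells (BSCs), gated as NGFR-positive, and the remaining NGFR-negative cells, called non-basal. From the lung of mice 4 to 6 came airway CD24hi cells and airway CD24lo cells (both EpCAM-positive and CD104-positive, labelled as enriched in ciliated and in club cells, respectively), alveolar cells (EpCAM-positive and CD104-low) and EpCAM-negative, non-epithelial cells. Each gate was a mixture of cell types, no gate was designed for tuft cells or ionocytes, and organ and animal changed together between trachea and lung.

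Tuft cells are slender epithelial cells that sense luminal chemicals with the machinery of taste: bitter or sweet receptors, the G protein gustducin and the cation channel TRPM5. They release acetylcholine, the cytokine interleukin-25 and leukotrienes, and depend on the POU-domain factor POU2F3. Ionocytes are sparse airway cells that depend on the forkhead factor FOXI1 and are rich in proton pumps of the V-ATPase family and in the chloride channel CFTR. Because all libraries were bulk RNA, fewer cells of a type and less RNA per cell cannot be told apart in any value given here.

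The promoters of 2 taste signalling genes and of both ionocyte factors are shown, because POU2F3 belongs to the factors that bind the octamer and FOXI1 to those that bind the forkhead core. Each window held 300 bases, from 250 before to 50 after the annotated start, and was taken from RefSeq on build GRCm38.p6 (equivalent to the mm10 build of the files). Windows were at hand for 6 of the 9 genes. The octamer (ATGCAAAT) and the forkhead core (TAAACA) were searched on both strands, and matches are in capitals. Sites of the 2 motifs can overlap by at most 1 base, and none did in these windows. The windows lay at chr7:143094593-143094892 (minus strand) for *Trpm5*, chr5:17962320-17962619 (plus strand) for *Gnat3*, chr11:34208040-34208339 (minus strand) for *Foxi1* and chr7:109731683-109731982 (minus strand) for *Ascl3*, each written 5′ to 3′ on the strand of the gene:
Trpm5: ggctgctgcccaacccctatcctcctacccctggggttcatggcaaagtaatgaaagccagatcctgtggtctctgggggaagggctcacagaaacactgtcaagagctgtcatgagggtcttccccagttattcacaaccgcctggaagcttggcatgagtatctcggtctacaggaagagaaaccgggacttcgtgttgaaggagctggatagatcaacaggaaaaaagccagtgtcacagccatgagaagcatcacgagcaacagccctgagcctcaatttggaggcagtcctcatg
Gnat3: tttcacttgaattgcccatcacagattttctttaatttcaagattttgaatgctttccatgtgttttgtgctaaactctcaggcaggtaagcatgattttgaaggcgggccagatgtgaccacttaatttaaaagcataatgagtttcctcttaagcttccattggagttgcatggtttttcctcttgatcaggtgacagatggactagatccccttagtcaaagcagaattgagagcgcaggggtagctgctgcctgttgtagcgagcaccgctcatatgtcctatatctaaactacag
Foxi1: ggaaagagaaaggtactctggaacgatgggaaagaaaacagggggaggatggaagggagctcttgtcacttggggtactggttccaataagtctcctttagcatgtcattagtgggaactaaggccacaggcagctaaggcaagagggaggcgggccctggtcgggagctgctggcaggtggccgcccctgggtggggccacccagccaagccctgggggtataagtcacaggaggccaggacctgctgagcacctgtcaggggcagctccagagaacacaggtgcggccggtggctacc
Ascl3: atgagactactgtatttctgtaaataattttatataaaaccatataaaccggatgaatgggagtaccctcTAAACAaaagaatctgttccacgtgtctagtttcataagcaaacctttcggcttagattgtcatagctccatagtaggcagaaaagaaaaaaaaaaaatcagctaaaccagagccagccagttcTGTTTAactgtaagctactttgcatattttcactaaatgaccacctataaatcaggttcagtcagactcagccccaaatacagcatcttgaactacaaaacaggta
*Ascl3* held 2 forkhead cores, at position -180 on its own strand and at -56 on the other strand, counted from the start. The forkhead core was present in 13.4% and the octamer in 1.74% of all 32851 windows in the table. The *Trpm5*, *Gnat3* and *Foxi1* windows held neither run of letters, nor did those of *Gfi1b* and *Dclk1*.

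Total reads counted in genes ranged from 29317215 to 32993621 in the 6 tracheal libraries and from 9811503 to 13208897 in the 12 lung libraries, so a lung library could miss a gene that a tracheal library would show. Replicates differed by more than sampling noise in all 18 replicate pairs (lowest chi-square per degree of freedom 3.67). The gates held the markers of their labelled cells, but not those alone. Summed club markers were 251360 to 351134 CPM in airway CD24lo cells, and also 38036 to 50315 in airway CD24hi cells and 14570 to 16870 in BSCs. Summed basal marker levels were 4275 to 4460 CPM (counts scaled to equal TMM-adjusted library size) in BSCs and 330 to 432 in non-basal cells, summed ciliated markers were 4533 to 4585 CPM in airway CD24hi cells, and summed alveolar type 2 markers were 153681 to 171893 CPM in alveolar cells. *Epcam* was at 3.45 to 3.88 CPM in EpCAM-negative cells and at 172 CPM or more in every other library.

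Among the tuft cell genes, the taste signalling members were found almost entirely in the trachea. *Trpm5* (chr7:143071529-143094642), the cation channel that opens downstream of taste receptors, had 573, 550 and 488 reads in the BSC libraries of mice 1, 2 and 3 and 1236, 829 and 921 reads in the non-basal libraries. In the lung it had 5, 18 and 7 reads in airway CD24hi cells, 8, 8 and 1 in airway CD24lo cells, 2, 3 and 3 in alveolar cells and 1 in each EpCAM-negative library. Every tracheal library lay far above every lung library. Per length, its level was 7.70 ± 1.66 RPKM in non-basal libraries (CPM divided by gene length in kilobases, mean and SD, n = 3) and 3.44 ± 0.288 RPKM in BSCs.

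*Gnat3* (chr5:17962570-18019668), the alpha subunit of gustducin, had 379, 362 and 310 reads in BSCs and 803, 553 and 566 in non-basal cells. It had 0, 1 and 1 reads in airway CD24hi cells, 1, 2 and 3 in airway CD24lo cells, 2, 0 and 0 in alveolar cells and 0 in all EpCAM-negative libraries. Its pooled level in non-basal cells was 428 times that in airway CD24hi cells, with a 95% counting interval of 118 to 3540 because the lower group held only 2 reads. Against EpCAM-negative cells it was at least 273-fold higher, taking 3 reads over the group as the floor. The intervals and floors given here cover counting error only.

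*Pou2f3* (chr9:43123927-43205755), the transcription factor that tuft cells depend on, had 163, 178 and 135 reads in BSCs and 299, 230 and 244 in non-basal cells. The lung epithelial gates held 3, 1 and 2 reads (airway CD24hi), 1, 1 and 0 (airway CD24lo) and 2, 1 and 0 (alveolar), but the EpCAM-negative libraries held 13, 20 and 21. The EpCAM-negative level was 0.568 ± 0.133 RPKM (SD, n = 3). It was above that of airway CD24hi cells (edgeR quasi-likelihood test with Benjamini-Hochberg adjustment over all genes, used for every adjusted p here, adjusted p = 5.06e-06) and below that of BSCs (adjusted p = 1.34e-05). *Trpm5* at 1 read and *Gnat3* at 0 reads did not accompany *Pou2f3* in those libraries.

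The secreted cytokine and the second factor were near the limit of detection. *Il25* (chr14:54932695-54935837), the alarm cytokine by which tuft cells call on innate lymphoid cells, had 10, 8 and 6 reads in BSCs and 13, 3 and 12 in non-basal cells. It had 0 reads in every airway and alveolar library and 0, 0 and 2 in EpCAM-negative cells. *Gfi1b* (chr2:28609450-28621982), a zinc-finger repressor also active in blood lineages, had 1 read in each BSC library, 10, 7 and 4 in the non-basal libraries, 3, 0 and 0 in EpCAM-negative cells and 1, 0 and 0 in alveolar cells. It passed the filter on low counts through 3 libraries, non-basal 1 and 2 and EpCAM-negative 1. At this depth neither gene was detectable in airway CD24hi or airway CD24lo cells.

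*Alox5ap* and *Dclk1* had another distribution. *Alox5ap* (chr5:149265004-149288153), the protein that presents arachidonic acid to 5-lipoxygenase for leukotriene synthesis, had 58, 68 and 74 reads in BSCs, 202, 183 and 185 in non-basal cells, 29, 30 and 24 in airway CD24hi cells, 29, 29 and 21 in airway CD24lo cells, 56, 79 and 31 in EpCAM-negative cells and 12, 13 and 7 in alveolar cells. It was present in every population and is also a gene of leukocytes. Its annotated exons share 13.3% of their bases with *Gm19719*, so its reads may not all be its own.

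*Dclk1* (chr3:55242303-55539068), a microtubule-binding kinase widely used as a tuft cell marker and also made by neurons and mesenchymal cells, had 326, 278 and 271 reads in BSCs and 1189, 816 and 893 in non-basal cells. In the shallower lung libraries it had 30, 44 and 56 reads in airway CD24hi cells, 120, 143 and 139 in airway CD24lo cells, 574, 560 and 591 in EpCAM-negative cells and 453, 402 and 391 in alveolar cells. As CPM, *Dclk1* was at 37.0 to 39.9 in alveolar and 45.0 to 46.2 in EpCAM-negative cells, which had at most 3 reads of *Trpm5* or *Gnat3* per library, and at 28.7 to 40.5 in non-basal cells.

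The ionocyte genes were concentrated in the non-basal gate. *Foxi1* (chr11:34204341-34208089), the forkhead factor of ionocytes, had 149, 119 and 158 reads in non-basal cells and 13, 7 and 4 in BSCs. Airway CD24hi cells held 2, 1 and 0 reads, and the 9 libraries of airway CD24lo, EpCAM-negative and alveolar cells held 0. Its non-basal level was at least 47.7-fold above airway CD24lo, 60.5-fold above EpCAM-negative and 51.5-fold above alveolar cells, with 3 reads over each of those groups as the floor.

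*Ascl3* (chr7:109727465-109731732), a basic helix-loop-helix factor of ionocytes and of salivary duct cells, had 210, 129 and 181 reads in non-basal cells, 50, 20 and 21 in BSCs and 18, 15 and 8 in airway CD24hi cells. It had 5, 3 and 0 reads in airway CD24lo cells, 2, 0 and 2 in EpCAM-negative cells and 0, 2 and 2 in alveolar cells. The non-basal libraries lay above all others, and airway CD24hi cells and BSCs overlapped as CPM.

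**Figure D1:**
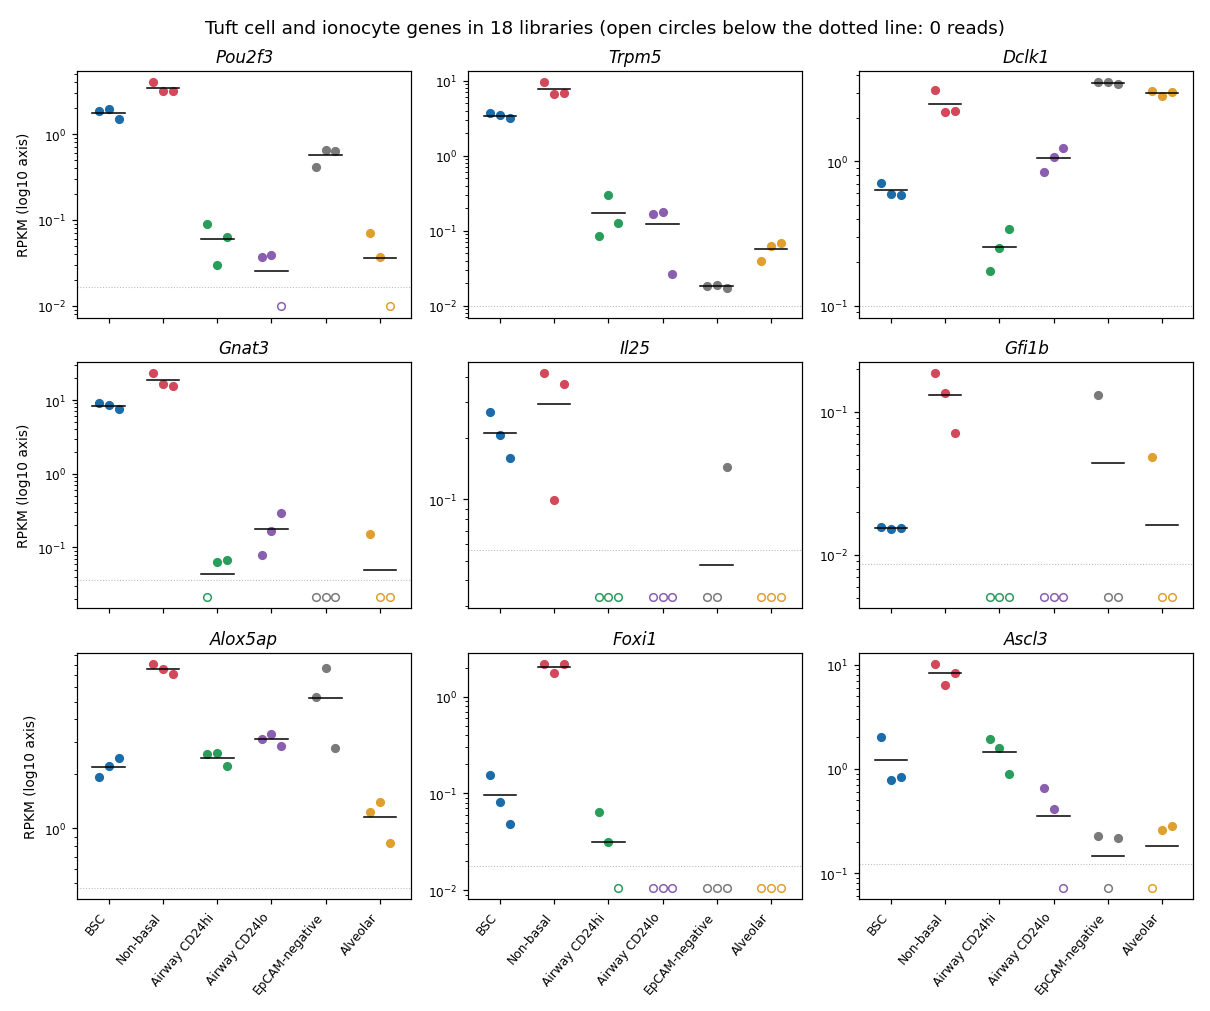
Level of each of the 9 genes (RPKM, log10 axis) in the 18 libraries, 3 points per population with a line at the mean; open circles below the dotted line stand for 0 reads. In 8 of the 9 panels the non-basal libraries of the trachea have the highest mean, *Alox5ap* overlaps between non-basal and EpCAM-negative cells, and *Dclk1* is highest in EpCAM-negative cells (3.52 RPKM).

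The comparison of the tracheal gates asked whether the cells went with the NGFR-negative fraction. Of the 9 genes, 8 were higher in non-basal cells than in BSCs and none lower, against 26.2% of the 17989 genes tested that were higher and 48.2% that were called in either direction. Since *Foxi1* and *Gfi1b* needed non-basal libraries to pass the filter on low counts, that count was in part fixed in advance. *Foxi1* rose by 4.38 ± 0.37 on the log2 scale (SE; 20.8-fold; adjusted p = 1.59e-06) and *Ascl3* by 2.77 ± 0.38 (adjusted p = 1.11e-05). Among the tuft cell genes the differences were 2.00 ± 0.17 for *Dclk1* (adjusted p = 2.60e-08), 1.78 ± 0.24 for *Alox5ap* (adjusted p = 8.32e-06), 1.16 ± 0.20 for *Trpm5* (adjusted p = 1.35e-04), 1.14 ± 0.20 for *Gnat3* (adjusted p = 2.13e-04) and 0.97 ± 0.20 for *Pou2f3* (adjusted p = 6.12e-04). For these 7 genes no BSC library reached the level of any non-basal library.

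*Gfi1b* was also called (adjusted p = 0.00882), but 3 BSC reads stood behind it and the ratio of 8.44 had a counting interval of 2.52 to 44.2. With DESeq2 it missed the threshold (adjusted p = 0.111). *Il25* differed by 0.47 ± 0.56 with overlapping groups (adjusted p = 0.520), and neither gate was distinguishable from the other for it. Scaling by library size alone shifted the median of all genes from 0.02 to -0.31 on the log2 scale and the share of higher genes among those called from 54.5% to 27.8%. The same 8 genes were higher under that scaling, with *Pou2f3* at 0.62 and *Trpm5* at 0.81.

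The BSC level as a percentage of the non-basal level of the same mouse varied among the genes. It was 45.5, 60.9 and 48.0% for *Pou2f3* in mice 1, 2 and 3, 38.7, 52.2 and 45.9% for *Trpm5*, and 39.4, 51.5 and 47.5% for *Gnat3*. *Alox5ap* stood at 24.0 to 34.7% and *Dclk1* at 22.9 to 26.8%. *Foxi1* was at 7.28, 4.63 and 2.20% and *Ascl3* at 19.9, 12.2 and 10.1%, below these 5 tuft cell genes in every mouse. On few reads, *Gfi1b* was at 8.35, 11.2 and 21.7%, below *Ascl3* in mice 1 and 2, and *Il25* was at 64.2, 210 and 43.4%.

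Markers of the other luminal cells gave the background for these percentages. The median over the genes of the list, from pooled reads, was 2.18% for 5 club cell genes, 6.78% for 7 ciliated cell genes and 5.52% for 7 neuroendocrine genes, and 993% for 5 basal cell genes. For 5 genes of submucosal glands it was 7.12% (1.75 to 69.2%). The ciliated genes ranged from 2.94 to 13.2%. *Foxi1*, pooled over mice at 4.69%, lay within that range, *Ascl3* at 14.6% lay just above it, and *Pou2f3*, *Trpm5* and *Gnat3* lay further above. The wider lists overlapped, with a median of 55.6% (22.4 to 185%) for 22 other tuft cell genes and of 31.5% (5.30 to 513%) for 15 other ionocyte genes. These were 22 of 24 and 15 of 20 listed genes. The median log2 differences given below for the same lists cover 24 and 18 genes, so the 2 measures are not over the same genes. Among club genes, *Cyp2f2* reached 49.8%. The BSC library of mouse 1 had the largest percentages for *Foxi1*, *Ascl3*, *Foxj1* (20.4%) and *Scgb1a1* (2.70%), while *Trpm5*, *Gnat3*, *Pou2f3*, *Dclk1* and *Alox5ap* had their lowest in that mouse.

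The log2 ratio of *Trpm5* to *Foxi1* CPM was 6.23 ± 0.74 in BSCs and 2.80 ± 0.25 in non-basal cells (SD, n = 3), a difference of 3.43. The lowest BSC value, 5.46, was above the highest non-basal value, 3.05. A two-sided exact permutation test over the 6 libraries gave p = 0.1, the smallest that 3 libraries against 3 allow. This ratio was chosen after its values were seen, and the test left the pairing of the gates by mouse aside. The p-value therefore gives no support.

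**Figure D2:**
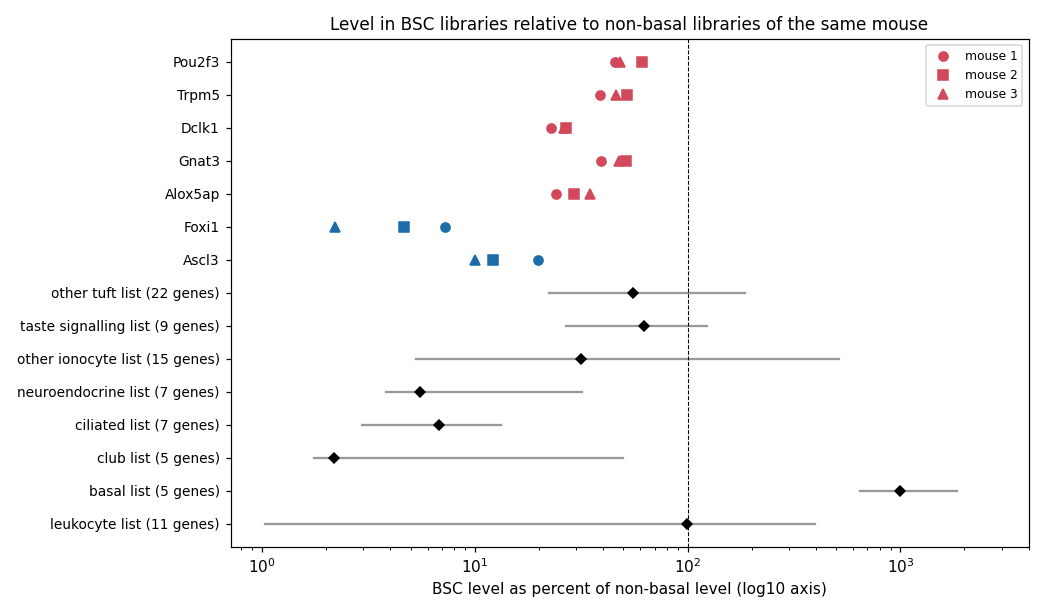
Level in BSC libraries as a percentage of the non-basal level (log10 axis; dashed line at 100%): for 7 genes, 1 symbol per mouse, tuft cell genes in red and ionocyte genes in blue; below them, the median (diamond) and range of gene lists from pooled reads. *Foxi1* lies at 2.20 to 7.28%, near the ciliated list (median 6.78%), and *Trpm5* at 38.7 to 52.2%. The other tuft list (22 of 24 genes, median 55.6%) and the other ionocyte list (15 of 20 genes, median 31.5%) overlap widely.

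Several of these genes are shared with leukocytes or mesenchymal cells, and the tracheal stain named no marker to remove those. The summed level of 14 leukocyte markers was 143 to 188 CPM in BSCs and 78.0 to 155 CPM in non-basal cells, most of it *Cd74* (127 and 65.0 CPM on average), a gene that epithelial cells can also make. Without *Cd74* it was 39.7 to 48.5 and 35.2 to 67.1 CPM, which overlapped, and 2 of 14 markers were higher and 3 lower in non-basal cells. Over all genes 26.2% were higher and 21.9% lower in that gate. The defining marker *Ptprc* had 199, 267 and 235 reads in BSCs and 409, 192 and 248 in non-basal cells, groups that overlapped as CPM. For basophils and mast cells, the defining genes *Fcer1a*, *Mcpt8* and *Ms4a2* had 0 reads in BSCs and 0, 1 and 2 in non-basal cells in all. Of 8 fibroblast markers, 5 were higher and 1 (*Dcn*) lower in non-basal cells, with *Col1a1* at 4, 0 and 6 reads in BSCs and 269, 71 and 233 in non-basal cells. *Dcn* made up nearly all of the BSC sum of 333 to 339 CPM, and without it the sum was 0.304 to 0.762 CPM in BSCs and 49.0, 11.4 and 35.5 CPM in the non-basal libraries of mice 1, 2 and 3, where *Dclk1* was at 40.5, 28.7 and 29.1 CPM. With *Dcn* the sum was 67.1 to 116 CPM in non-basal cells, below that in BSCs and so opposite in direction to *Dclk1*. Only the sum without *Dcn* was higher in non-basal cells, as *Dclk1* was, and *Dcn* was set apart after the values were seen. The part of leukocytes in the tracheal difference of *Alox5ap*, and of fibroblasts in that of *Dclk1*, was not tested.

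Further taste signalling genes accompanied *Trpm5* and *Gnat3* in the trachea. Of 19 listed, 12 passed the filter on low counts, and in non-basal cells 5 were higher and 1 lower than in BSCs, with a median difference of 0.67 against 0.02 over all genes. The shares over all genes were 26.2% higher and 21.9% lower. *Tas2r108*, a bitter receptor, had 37, 39 and 44 reads in BSCs, 60, 45 and 49 in non-basal cells and 0 in all 12 lung libraries. It was not called between the tracheal gates (0.63 ± 0.25, adjusted p = 0.0643). *Plcb2*, the phospholipase between receptor and channel, was higher in non-basal cells by 1.24 ± 0.31 (adjusted p = 0.00321), and *Gnb3*, the beta subunit paired with gustducin, by 0.67 ± 0.21 (adjusted p = 0.0138).

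*Tas1r1*, part of the umami receptor, followed another course. It was higher in non-basal cells than in BSCs by 1.86 ± 0.35 (adjusted p = 2.97e-04), but its largest counts, 137, 111 and 103 reads, were in airway CD24hi cells, which had almost no *Gnat3*. *Ovol3* was higher in non-basal cells (1.34 ± 0.47, adjusted p = 0.0293), as was the channel *Trpm4* (0.45 ± 0.09, adjusted p = 3.45e-04), and the calcium release receptor *Itpr3* was lower (-0.31 ± 0.12, adjusted p = 0.0373). *Trpm4* and *Itpr3* were abundant in every epithelial gate, at 5.45 to 25.8 RPKM on average. With library size alone the counts were 2 higher and 1 lower.

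Of 24 other genes reported for tuft cells, 13 were higher and 1 lower in non-basal cells (10 and 1 with library size alone), with a median difference of 0.85. In the main fit 26.2% of all genes were higher and 21.9% lower. *Hepacam2* had 480, 341 and 355 reads in non-basal cells and 108, 117 and 93 in BSCs (2.16 ± 0.27, adjusted p = 4.17e-06). *Ptpn18*, a phosphatase, was 3.26-fold higher (adjusted p = 6.49e-07), *Spib*, an ETS factor shared with B cells, was higher by 1.46 ± 0.36 (adjusted p = 0.00270) and *Rgs13*, a regulator of G protein signalling, by 1.21 ± 0.28 (adjusted p = 0.00268). *Rgs13* had 1 read each in airway CD24hi and alveolar cells and 0 in the other lung gates. *Strip2* was higher by 1.72 ± 0.38 (adjusted p = 0.00112). The cytokine *Tslp* was called on 10 against 2 reads (adjusted p = 0.0222), and had 288, 286 and 311 reads in EpCAM-negative cells. *Kctd12* was the 1 gene lower in non-basal cells (-0.89 ± 0.19, adjusted p = 7.65e-04).

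*Chat*, the enzyme that makes acetylcholine, had 22, 16 and 16 reads in BSCs, 14, 12 and 14 in non-basal cells and 0 in every lung library. It did not differ past the threshold between the tracheal gates (-0.16 ± 0.32, adjusted p = 0.718), and the BSC level was 99.1 to 131% of the non-basal level.

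The enzymes that turn arachidonic acid into leukotrienes, prostaglandins and other lipid signals moved both ways. Of 11 genes, 4 were higher in non-basal cells and 4 lower (3 and 6 with library size alone). Over all genes in the main fit 26.2% were higher and 21.9% lower. *Alox5*, the 5-lipoxygenase that *Alox5ap* serves, had 272, 191 and 201 reads in non-basal cells and 146, 155 and 141 in BSCs (0.86 ± 0.31, adjusted p = 0.0278), and *Ltc4s*, the leukotriene C4 synthase, was higher by 1.17 ± 0.26 (adjusted p = 0.00122). *Lta4h*, which makes leukotriene B4, was not called (0.12 ± 0.08, adjusted p = 0.221). The cyclooxygenase *Ptgs1* was lower by 1.57 on the log2 scale in non-basal cells (-1.57 ± 0.12, adjusted p = 1.40e-08) and the prostaglandin D synthase *Hpgds* was lower as well (-0.90 ± 0.29, adjusted p = 0.0178). *Hpgds* had 265, 295 and 306 reads in BSCs and 1 in each alveolar library. The lipoxygenases *Alox15* (4.29 ± 0.23, adjusted p = 1.62e-10) and *Alox12* (0.92 ± 0.13, adjusted p = 1.46e-05), not specific to tuft cells, were higher in non-basal cells.

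The wider ionocyte list moved with *Foxi1*. Of 20 genes, 19 passed the filter, and 18 of them had more than 3 reads in at least 1 tracheal gate. Of these 18, 15 were higher and 1 lower in non-basal cells (13 and 1 with library size alone), with a median difference of 2.51. Among all genes in the main fit 26.2% were higher and 21.9% lower. *Bsnd*, the accessory subunit of chloride channels, had 34, 21 and 24 reads in non-basal cells, 3, 0 and 2 in BSCs and 4 in all in the lung, each of them in airway CD24hi cells (4.07 ± 0.54 between tracheal gates, adjusted p = 6.64e-05). *Coch* was higher by 3.88 ± 0.48 (adjusted p = 3.31e-06), *Atp6v0d2* by 3.19 ± 0.46 (adjusted p = 1.73e-05) and *Atp6v0a4* by 3.13 ± 0.21 (adjusted p = 1.69e-09), the last 2 being V-ATPase subunits. *Slc26a4*, an anion exchanger, was called on 26 against 1 read (adjusted p = 1.24e-04).

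Not all of these genes were limited to gates with *Foxi1*. *Atp6v1b1*, a V-ATPase subunit, had 6903, 7574 and 8016 reads in non-basal cells and 763, 822 and 874 in airway CD24lo cells, where *Foxi1* had 0 reads. *Slc26a4* had 466, 407 and 364 reads in alveolar cells. *Cftr* had 145, 143 and 171 reads in non-basal cells and 73, 60 and 53 in BSCs (1.57 ± 0.15, adjusted p = 1.31e-07), but 1117, 1118 and 1134 in alveolar cells. *Barx2*, the 1 gene lower in non-basal cells (-2.36 ± 0.24, adjusted p = 2.50e-07), had 2331 to 2550 reads in BSCs. Of 12 V-ATPase subunits found in all cells, 7 were higher and 2 lower, with a median of 0.31, against 26.2% higher and 21.9% lower over all genes.

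**Figure D3:**
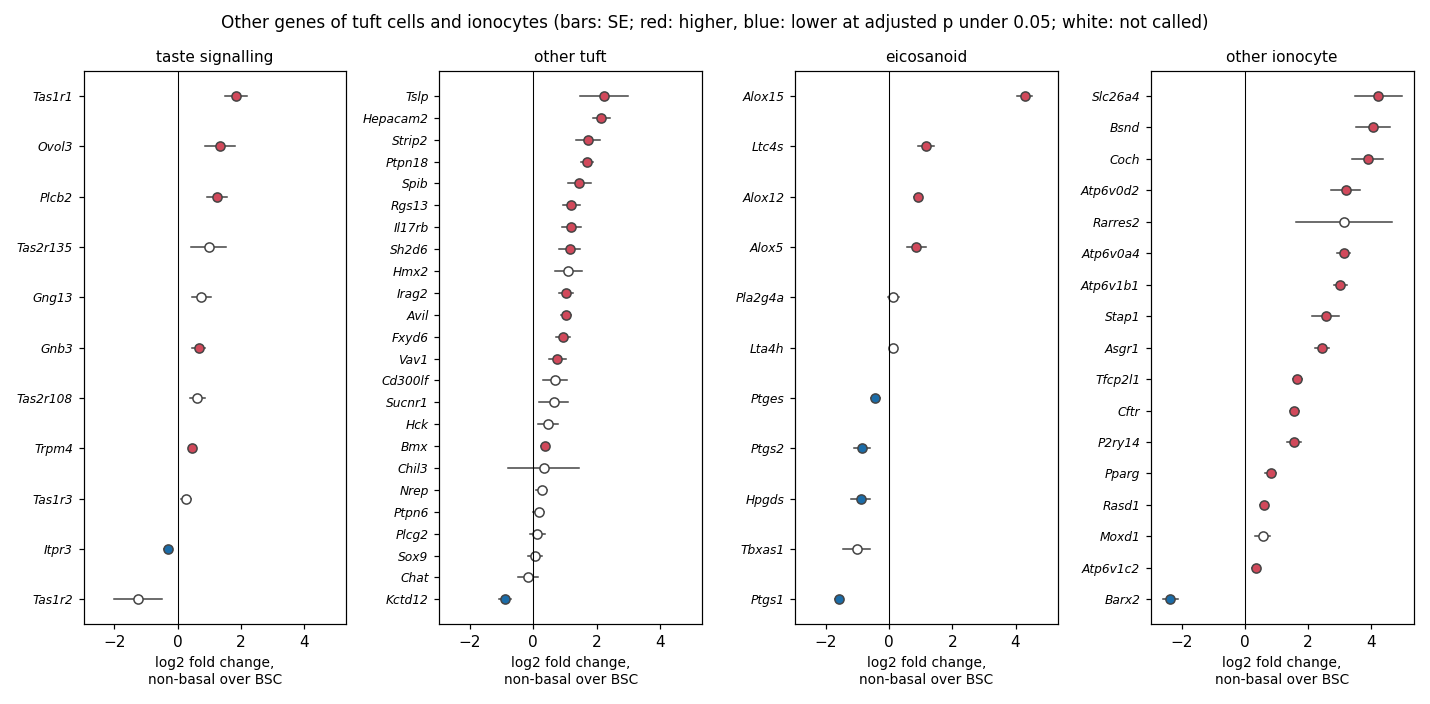
Log2 fold change of non-basal over BSC cells for genes of 4 lists that were measured above 3 reads in at least 1 of the gates, 1 ionocyte gene left out, with bars for the SE; red, higher, blue, lower (adjusted p under 0.05), white, not called. The ionocyte list reaches the largest differences (median 2.51) and the eicosanoid list moves both ways, from *Ptgs1* at -1.57 to *Alox15* at 4.29.

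Between the lung airway gates, 2 of the 9 genes were called, 1 in each direction, against 55.0% of all genes (27.8% higher and 27.2% lower in airway CD24hi cells). *Dclk1* was lower in airway CD24hi than in airway CD24lo cells (-2.05 ± 0.21, adjusted p = 1.94e-07). *Ascl3* was higher in airway CD24hi cells (1.93 ± 0.71, adjusted p = 0.0292), on 41 reads against 8, and lost the call in 4 of the 6 fits that left out 1 library. Those were the fits without airway CD24hi replicate 1 (adjusted p = 0.0836) or 2 (0.0599) and without airway CD24lo replicate 2 (0.0645) or 3 (0.101). *Alox5ap*, *Trpm5*, *Gnat3* and *Pou2f3* were not called, at 79, 17, 6 and 2 reads over the airway CD24lo group.

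In the lung airway gates the other lists did not gather where *Ascl3* was. Over all genes 27.8% were higher and 27.2% lower in airway CD24hi cells. Genes with 3 or fewer reads in both airway gates were left out of the list counts. Of 20 other tuft cell genes 4 were higher and 4 lower in airway CD24hi cells, and of 9 taste genes 2 were higher and 1 lower. Of 18 ionocyte genes 3 were higher and 10 lower, the latter with *Atp6v1b1* (-3.82 ± 0.23, adjusted p = 6.24e-10), *Asgr1* (-3.09 ± 0.23, adjusted p = 5.50e-09) and *Cftr* (-2.44 ± 0.15, adjusted p = 1.21e-09). *Barx2* (3.09 ± 0.26, adjusted p = 2.54e-08) was higher. The tyrosine kinase *Bmx* was lower by 2.87 on the log2 scale in airway CD24hi cells (-2.87 ± 0.14, adjusted p = 1.99e-10), and *Avil*, an actin-binding protein of tuft cells, was higher (1.34 ± 0.25, adjusted p = 2.24e-04). With library size alone the share of higher genes among those called rose from 50.5% to 68.4%, the median of all genes moved from -0.06 to 0.21, and the counts for the other tuft cell genes became 5 higher and 3 lower.

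Against alveolar cells, 4 of the 9 genes were called in airway CD24hi cells, 3 higher and 1 lower (61.9% of all genes, 30.5% higher and 31.4% lower), and 2 in airway CD24lo cells, 1 in each direction (48.4%, 24.2% each way). *Dclk1* was lower in both, by -3.55 ± 0.20 (adjusted p = 4.19e-11) and -1.51 ± 0.17 (adjusted p = 1.16e-06), and *Alox5ap* was higher in both, by 1.08 ± 0.35 (adjusted p = 0.0118) and 1.41 ± 0.35 (adjusted p = 0.00259). *Ascl3* was higher in airway CD24hi cells (2.99 ± 0.82, adjusted p = 0.00418). *Trpm5* was called there as well (1.58 ± 0.60, adjusted p = 0.0305), on 30 reads against 8, but not without airway CD24hi replicate 2, which held 18 of the 30 (0.88, adjusted p = 0.238), nor without alveolar replicate 1 (1.37, adjusted p = 0.102) or 2 (1.66, adjusted p = 0.0608). *Alox5ap* missed the threshold in airway CD24hi against alveolar cells without alveolar replicate 3 (adjusted p = 0.0503).

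Against EpCAM-negative cells, 5 of the 9 genes were called in airway CD24hi cells, 2 higher and 3 lower (72.2% of all genes, 35.6% higher and 36.7% lower). *Trpm5* (adjusted p = 9.77e-04) and *Ascl3* (3.21 ± 0.81, adjusted p = 0.00177) were higher in airway CD24hi cells, and *Pou2f3* (-3.18 ± 0.45), *Dclk1* (-3.79 ± 0.20, adjusted p = 9.23e-12) and *Alox5ap* (-1.08 ± 0.28, adjusted p = 0.00208) were lower. *Trpm5* rested on 3 EpCAM-negative reads, with a ratio of 9.55 and a counting interval of 2.97 to 48.9.

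*Dclk1* and *Alox5ap* stood beside markers of other cells in the EpCAM-negative gate. The summed level of 8 fibroblast markers was 27115 to 28593 CPM there, 711 to 1175 CPM in alveolar cells and 67.1 to 116 CPM in non-basal cells, while *Dclk1* in the same order was at 45.0 to 46.2, 37.0 to 39.9 and 28.7 to 40.5 CPM. *Alox5ap* had 56, 79 and 31 reads in EpCAM-negative replicates 1, 2 and 3, and *Ptprc* had 373, 520 and 155, with summed leukocyte markers at 291, 364 and 142 CPM (134, 195 and 59.7 without *Cd74*). The 3 libraries of this gate had the same order for *Alox5ap* and leukocyte markers, seen after the values were known. As CPM, no other gate shared that order. In airway CD24lo cells *Alox5ap* was highest in replicate 2 (2.85 CPM) and lowest in replicate 3 (2.42 CPM). The leukocyte sums without *Cd74* were 54.2, 34.9 and 60.0 CPM in replicates 1, 2 and 3 there. In alveolar cells the summed leukocyte level of 3717 to 4089 CPM was almost all *Cd74* (3818 CPM on average), which alveolar type 2 cells also make. The lung cells were also stained for CD45 and CD31, markers of leukocytes and endothelium, and the study's methods describe alveolar cells as negative for both. Even so, *Pecam1*, the gene of CD31, was at 39.8 to 76.8 CPM in alveolar cells. It was at 44.0 to 175 CPM in airway CD24hi, 78.3 to 240 in airway CD24lo and 128 to 186 in EpCAM-negative cells. The part of fibroblasts and leukocytes in the levels of *Dclk1* and *Alox5ap* was not tested.

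**Figure D4:**
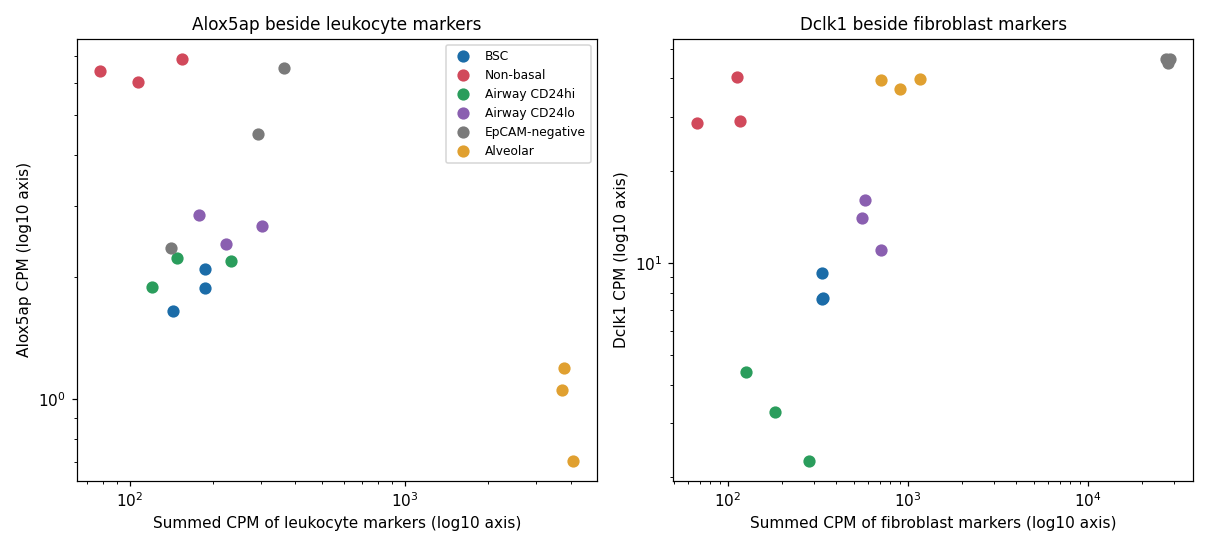
*Alox5ap* CPM against the summed CPM of 14 leukocyte markers (left) and *Dclk1* CPM against that of 8 fibroblast markers (right), both on log10 axes, 1 point per library. The 3 EpCAM-negative points rise together on the left, from 142 to 364 CPM of leukocyte markers, an order that no other gate shares. On the right non-basal cells hold *Dclk1* levels near those of alveolar cells at 67.1 to 116 CPM of fibroblast markers.

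Between trachea and lung, where organ and animal cannot be told apart from the gate, all 9 genes were higher in non-basal than in airway CD24hi cells, against 31.5% of all genes that were higher, 36.9% that were lower and 68.4% called. The log2 differences were 5.78 ± 0.35 for *Pou2f3* (adjusted p = 1.57e-10), 5.46 ± 0.30 for *Trpm5* (adjusted p = 4.36e-11), 3.31 ± 0.20 for *Dclk1* (adjusted p = 1.21e-10) and 1.61 ± 0.26 for *Alox5ap* (adjusted p = 3.02e-05). *Foxi1* was 63.3 times higher (counting interval 21.5 to 308, 3 reads in the lower group) and *Ascl3* 5.65 times (4.11 to 7.97). *Il25* was at least 4.16-fold and *Gfi1b* at least 3.12-fold higher. With the tracheal libraries thinned to the median lung depth, all 9 were called again. Without tracheal libraries *Foxi1*, *Gnat3* and *Il25* would have failed the filter on low counts, and without non-basal ones so would *Gfi1b*. That all 9 were higher was thus in part fixed in advance.

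BSCs, the study's main tracheal population, were compared with alveolar cells. Of the 9 genes, 8 were called (66.1% of all genes). In BSCs 7 were higher (30.5% of all genes) and *Dclk1* was lower (-2.24 ± 0.17, adjusted p = 2.33e-09, against 35.6% of all genes lower). Among the 7, *Foxi1*, *Gnat3* and *Il25* needed tracheal libraries to pass the filter on low counts, so this count was in part fixed in advance. *Trpm5* was higher by 5.88 ± 0.38 (adjusted p = 2.73e-10). *Pou2f3* was 47.7 times higher against 3 alveolar reads (counting interval 16.2 to 232) and *Gnat3* 158 times against 2 (43.7 to 1307). *Il25* and *Foxi1*, with 24 BSC reads each and 0 in alveolar cells, were each at least 2.41-fold higher. *Ascl3* was higher by 2.71 ± 0.79 (adjusted p = 0.00581) and *Alox5ap* by 0.91 ± 0.32 (adjusted p = 0.0203), the latter not without BSC replicate 3 (adjusted p = 0.0540) or alveolar replicate 3 (adjusted p = 0.0916). *Il25* was not called without alveolar replicate 1 (adjusted p = 0.0557) or 2 (adjusted p = 0.0533). With library size alone the share of higher genes among those called rose from 46.1% to 64.5%.

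The order of mean levels was the same at the top for most genes. Non-basal cells ranked first for 8 of the 9, and BSCs ranked next for *Pou2f3*, *Trpm5*, *Gnat3*, *Il25* and *Foxi1*. *Trpm5* did not differ past the threshold between any neighbours among airway CD24hi, airway CD24lo, alveolar and EpCAM-negative cells (adjusted p = 0.521, 0.166 and 0.177). For *Dclk1* the order was EpCAM-negative (3.52 ± 0.0516 RPKM, SD), alveolar (2.99 ± 0.121), non-basal (2.52 ± 0.517), airway CD24lo (1.05 ± 0.192), BSC (0.631 ± 0.0713) and airway CD24hi (0.255 ± 0.0824). Neither of its first 2 steps passed the threshold (adjusted p = 0.212 and 0.191), and the 3 lower steps did. Over all genes, 61.9% were called between EpCAM-negative and alveolar cells, 64.0% between non-basal and alveolar, 53.1% between non-basal and airway CD24lo, 71.6% between non-basal and EpCAM-negative, 63.4% between airway CD24lo and EpCAM-negative, 63.8% between BSCs and airway CD24lo, 72.0% between BSCs and airway CD24hi and 70.3% between BSCs and EpCAM-negative cells. *Alox5ap* did not differ past the threshold between non-basal and EpCAM-negative cells (adjusted p = 0.0551), and airway CD24hi cells and BSCs did not for *Ascl3* (adjusted p = 0.610).

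Per length, the tuft cell genes differed widely in level within the same gate. In non-basal cells *Gnat3* was highest at 18.5 ± 4.17 RPKM (SD, n = 3), followed by *Trpm5* and *Alox5ap* (7.55 ± 0.503), *Pou2f3* (3.46 ± 0.499), *Dclk1*, *Il25* (0.294 ± 0.171) and *Gfi1b* (0.131 ± 0.0578). Of the ionocyte genes, *Ascl3* was at 8.30 ± 1.86 and *Foxi1* at 2.04 ± 0.229 RPKM in that gate.

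The likeness of patterns over the 18 libraries was measured by Pearson's r of log2 CPM, as a description, since libraries of a gate share their cells and those of an organ their depth. *Trpm5* and *Gnat3* were alike (r = 0.96), as were *Foxi1* and *Ascl3* (r = 0.88), and *Dclk1* was unlike *Trpm5* (r = -0.14). Across the 2 cell types, *Foxi1* had r = 0.84 with *Trpm5* and 0.83 with *Gnat3*, and *Ascl3* had 0.84 and 0.71. These values therefore do not set the ionocyte genes apart from the taste signalling genes. Among 15630 genes, *Tas2r108* was among the 5 most like *Trpm5* (r = 0.96) and *Gnat3* (r = 0.98), together with *Adh6a* for both. *Tmem211* and *Serpinb12* were the most like *Trpm5* (both r = 0.97) and *Krt33b* the most like *Gnat3* (r = 0.99). *Pou2f3* was most like *Atf6b* and *Moxd1* (r = 0.97 and 0.96), *Foxi1* most like *Gal3st2b* and *Pigt* (both r = 0.98) with *Ccl28* next (r = 0.96), *Ascl3* most like *Acadm* (r = 0.92), *Dclk1* most like *Sec63* (r = 0.97) and *Alox5ap* most like *Ccl9* (r = 0.93).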

How the data were processed

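Per the study's methods, the authors aligned single-end mouse reads to mm10 with Rsubread, assigned them to Entrez genes with featureCounts and its in-built RefSeq annotation, and deposited raw read counts and gene lengths with no normalization. Use of strand was not given in the sources used here. Base calls were converted with bcl2fastq 1.8.4, per the labels. A table of the whole series repeated these counts and was left aside. No row lacked a gene (0).

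Counts were analysed in R 4.3.3. The filter kept 17989 genes that exceeded 0.2 CPM in 3 or more libraries. TMM factors were computed, and edgeR 4.0.16 (quasi-likelihood functions glmQLFit and glmQLFTest) fitted 18 libraries with 6 group means at once, with Benjamini-Hochberg adjustment over all genes and a threshold of 0.05. RPKM used the deposited lengths and TMM-scaled totals. The study's own test was limma voom, run here as an alternative (limma 3.58.1), as were DESeq2 1.42.0, RLE factors, library size alone and other filters. Further alternatives were only the libraries compared with and without replicate number as a block, leaving out each library, and thinned tracheal libraries. Within an organ the replicate number stands for the mouse, but between trachea and lung it joins different mice. Ratios of pooled reads carry exact 95% intervals. The fit was also run on simulated counts for non-basal against BSC cells. Those counts were drawn from its own dispersions as independent libraries, so that run cannot test the sharing of mice between gates. The libraries of a gate are different mice, so p-values measure the spread between mice within gates. The main fit left the sharing of mice between gates of an organ aside.

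Gates of an organ came from the same mice, per the labels. Deviations of same-mouse libraries correlated at 0.336, 0.117 and 0.218 for the tracheal gates and at 0.278, 0.0439 and 0.175 for the airway gates.

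The members and gene lists were chosen with earlier results of these data known. By rule, all 9 members were named, and from each of 4 lists at most 6 called genes without overlap between gates, by size of change, in either of 2 comparisons (non-basal with BSC, airway CD24hi with airway CD24lo), with *Cftr* and *Chat* in any case. Of the genes the rule names, 1 ionocyte gene is not reported here by name, though the list counts hold it. Further genes (*Tas2r108*, *Bsnd* and *Slc26a4* in the lung, *Ptprc*, *Foxj1* and others) were named, and marker sums without *Cd74* or *Dcn* computed, after their values were seen. Promoters were read with Python 3.11.15.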

Additional observations from a re-analysis of the deposited data

How the results depend on the processing

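The counts of genes called stayed within 1.5 times in all 7 comparisons under every alternative run, and so did the counts of members called, except on leaving out libraries in airway CD24hi against airway CD24lo, where 1 or 2 members were called. With replicate number as a block and only the libraries compared, 11199 genes were called between the tracheal gates, against 8668, and 8442 against 9899 between the airway gates. In these 2 comparisons the block was the mouse. The block changed no call of a member that could be fitted. Between trachea and lung it joined unrelated mice, so it is no check on the mouse there. *Gfi1b* failed the filter in the blocked fit of the tracheal gates, so 7 members were called there in place of 8. *Il25* reversed between the tracheal gates when tracheal libraries were thinned (-0.28, adjusted p = 0.832). *Trpm5* ranged from -0.29 (without airway CD24hi replicate 2) to 0.74 between the airway gates on leaving out libraries, and was at -2.07e-05 without airway CD24lo replicate 3. The call of *Trpm5* in airway CD24hi against alveolar cells was lost with limma voom (1.26, adjusted p = 0.138) and with only the libraries compared (1.66, adjusted p = 0.0564). Without airway CD24lo replicate 3, *Trpm5* was called against alveolar cells (1.59, adjusted p = 0.0452), and without alveolar replicate 1 so was *Gnat3* (adjusted p = 0.0431). The causes were not tested. In the lung 0 to 3 reads per gate were counted for *Il25*, *Gfi1b* and *Foxi1*, so depth limits how low their levels there can be placed.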
